A study of Mus musculus with 5 samples.

Results

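Respiratory complex I (NADH:ubiquinone oxidoreductase) is the largest enzyme of the mitochondrial respiratory chain. The 37 genes described here were named for subunits of it that the nuclear genome encodes. They were taken by symbol, as every row whose name is Nduf followed by a, b, c, s, v or ab and a number, which gave 37 of 19061 gene rows. The assembly factors, named Ndufaf (7 rows), and Ndufa4l2, a paralogue of Ndufa4, were left out by this rule. Of the 37 members, 7 encode core subunits, the conserved parts that carry electrons from NADH to ubiquinone, and 30 encode accessory subunits, which surround and stabilise the core. No row lay on the mitochondrial chromosome, so the core subunits encoded there were not analysed here. No row was named Ndufb1 either, so this accessory subunit of the membrane arm is not among the members. Ndufa4 matches the naming rule but its product is now known as a subunit of cytochrome c oxidase (complex IV), and values are given with and without it where it bears on them.

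The tissue was heart from C57BL/6 mice that were calcineurin transgenic. The alpha-MHC promoter drives the transgene in cardiomyocytes, and such mice develop marked cardiac hypertrophy. Both groups carried the transgene, and mice without it were not part of the comparison. One group of 3 libraries came from mice given JIB-04, which inhibits histone demethylases of the Jumonji family, at 50 mg/kg. The other group of 2 libraries came from mice given vehicle. Dosing ran 3 times a week from 4 weeks of age, and tissue was collected on postnatal day 158. The labels do not state that each library is a separate animal, so p-values measure the spread between these libraries only. In the title of JIB-04 replicate 3 the transgene abbreviation has a different letter, although its genotype label is the same as that of the others.

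Complex I takes electrons from NADH and passes them to ubiquinone, and couples this to pumping protons across the inner mitochondrial membrane. It has the shape of an L. The N module at the tip of the matrix arm oxidises NADH, the Q module below it reduces ubiquinone, and the membrane arm pumps protons. The heart is packed with mitochondria, and cardiomyocytes are therefore rich in complex I transcripts. In failing hearts of several species genes of oxidative phosphorylation are known to be expressed at a reduced level.

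All 37 members were well measured. Values are CPM as the authors deposited them, reads scaled by library size and a further factor for each library, and the recovered depth was 33629722, 35650602 and 34782448 reads in the JIB-04 libraries and 37002846 and 32152168 in the vehicle libraries. The lowest value of any member in any library was 50.3 CPM (1769 reads), so counting error was small, and every member passed the filter on low counts. Exons of 10 members overlap a gene on the opposite strand in the GENCODE annotation, and those of Ndufb8 overlap a gene on the same strand. Whether reads were counted by strand is not given in the sources used here, so values of these members may hold reads of the neighbour. Ndufab1, Ndufs6, Ndufb4 and Ndufa11 each have a processed pseudogene named after them in GENCODE, and their reads are uncertain to that extent. In all, the 37 genes held 8560, 7347 and 7803 CPM in JIB-04 replicates 1, 2 and 3, against 8222 and 8869 in vehicle replicates 1 and 2. JIB-04 replicate 1 lay between the vehicle libraries and the other JIB-04 libraries lay below both. The sums averaged 7903 ± 613 in JIB-04 (SD, n = 3) and 8545 ± 458 in vehicle (SD, n = 2).

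Every complex I gene had a lower mean with JIB-04 than with vehicle in the deposited values (33 of 37 with plain library totals), by a small amount, and none passed the test. The median log2 fold change over the 37 members was -0.12, on the log2(value + 1) scale and JIB-04 minus vehicle, against -0.01 over all 14414 genes tested. Of all genes tested, 53.1% had a negative log2 fold change, against 37 of 37 members. With vehicle replicate 2 left out, 28 of 37 members were negative. The members ran from -0.21 for Ndufa3 to -0.02 for Ndufs7. limma called 0 of 37 members at an adjusted p of 0.05, where it called 0.0% of all genes in either direction, and the smallest adjusted p of a member was 0.750. At an unadjusted p under 0.05 in limma, 3 members were lower and 0 higher, beside 2.51% of all genes lower and 3.93% higher. edgeR also called 0 members (0.0% of all genes), with 1 at an unadjusted p under 0.05 (6.56% of all genes). limma-voom called 0 (0.0%), with 2 at an unadjusted p under 0.05 (6.05%), and DESeq2 called 0 (0.576%), with 1 at an unadjusted p under 0.05 (5.58%). In 5 of 37 members every JIB-04 library lay below both vehicle libraries, a pattern shown by 12.0% of all genes tested, and in 0 members did every JIB-04 library lie above (10.7% of all genes). The share of members with every JIB-04 library below was thus near that of all genes, while the share above was smaller. The SE of a member's log2 fold change was 0.07 to 0.12, and the 95% interval included 0 for 34 members. Over all 37, the interval bounds ran from -0.43 to 0.23.

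**Figure D1:**
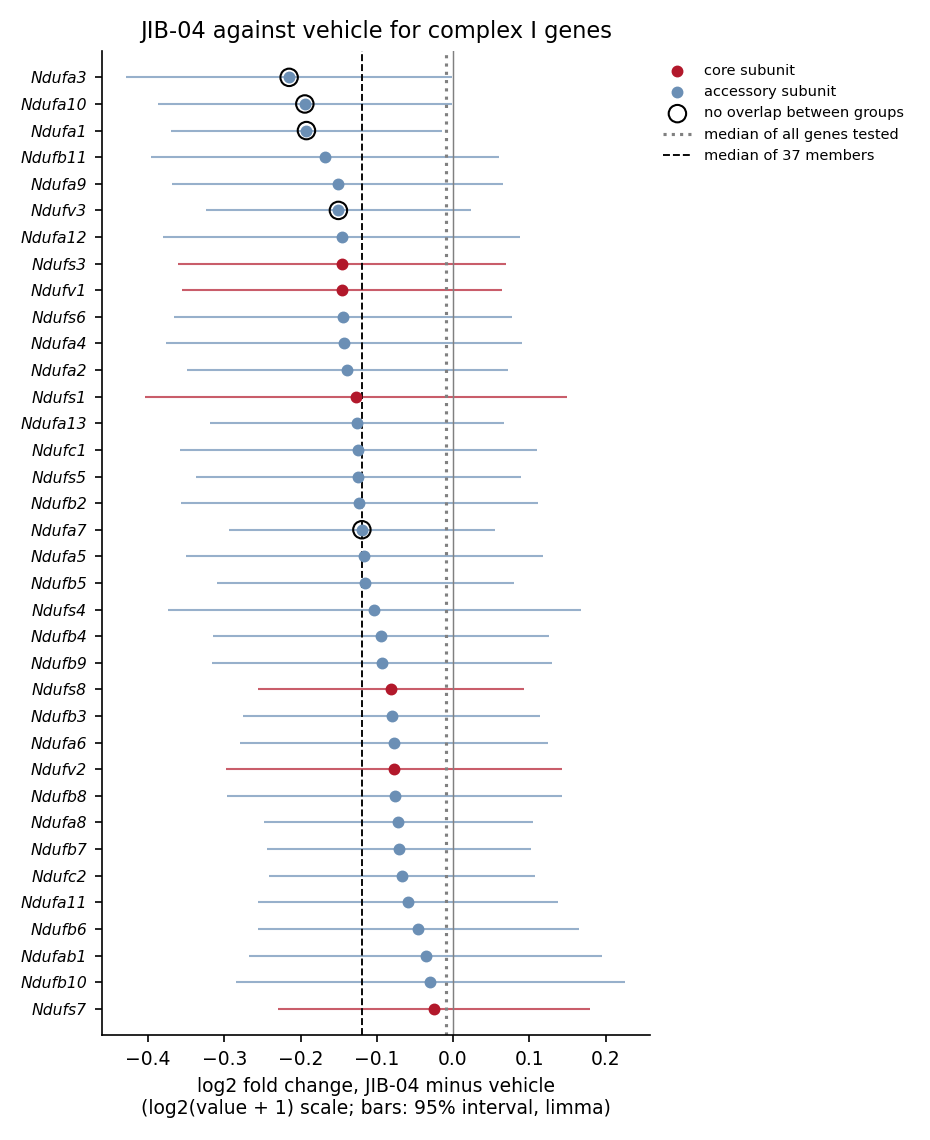
Log2 fold change of 36 of the 37 genes, JIB-04 minus vehicle on the log2(value + 1) scale (x axis), with its 95% limma interval as a bar, and genes down the page in order of fold change. All points lie below 0, from -0.21 to -0.02 (over all members, 33 of 37 lie below 0 with reads divided by the plain library total), and 3 intervals lie wholly below 0.

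JIB-04 libraries differed among themselves by more than the group means did, and the members varied together. Relative to the vehicle mean, the median of the 37 members on the log2 scale was 0.002, -0.21 and -0.11 in JIB-04 replicates 1, 2 and 3, against -0.05 and 0.05 in vehicle replicates 1 and 2. In JIB-04 replicate 2 all 37 members were below both vehicle libraries, in JIB-04 replicate 3 27 were, and in JIB-04 replicate 1 6 were. These counts stand beside 43.9%, 41.7% and 34.6% of all genes tested in JIB-04 replicates 2, 3 and 1. JIB-04 replicate 1 was thus at the vehicle level, and JIB-04 replicates 2 and 3 carried the lower JIB-04 means. Of the 37 members, 30 had their lowest value in JIB-04 replicate 2 and 7 in JIB-04 replicate 3, while 28 had their highest in vehicle replicate 2, 8 in JIB-04 replicate 1 and 1 in vehicle replicate 1. Vehicle replicate 1 was below the vehicle mean in 36 of 37 members (53.0% of all genes) and vehicle replicate 2 in 1 (47.0%). The exception was Ndufa7, named after its values were seen. With 2 vehicle libraries their deviations mirror each other, so the count and median of 1 follow from those of the other. Within 1 library the members spread little around their common shift. The SD over members was 0.07, 0.06 and 0.07 in JIB-04 replicates 1, 2 and 3 and 0.03 in each vehicle library. The vehicle libraries are measured from their own mean, which makes their 2 SDs equal and small by construction. These SDs therefore do not compare the spread of the groups.

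**Figure D2:**
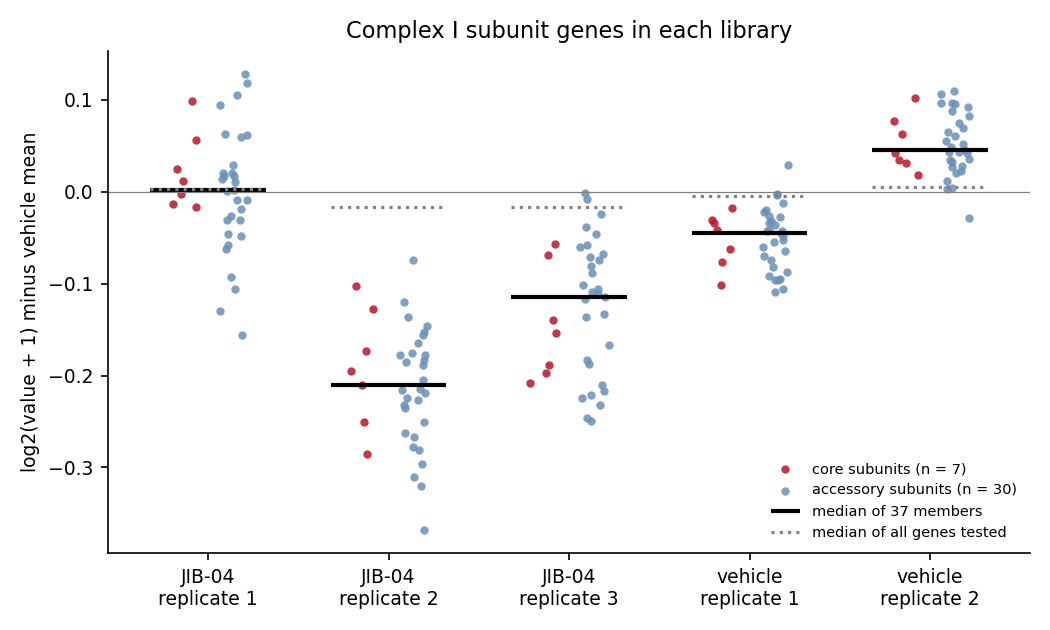
Each point is 1 gene in 1 library, as log2(value + 1) minus the mean of the vehicle libraries (y axis), for core and accessory subunits. The median of the 37 members is 0.002, -0.21 and -0.11 in JIB-04 replicates 1 to 3 and -0.05 and 0.05 in vehicle replicates 1 and 2. The vehicle libraries mirror each other, since they are measured from their own mean. The median of all genes stays within 0.02 of 0.

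Leaving out 1 library moved the median of the members without turning its sign, although several members turned in some settings. The median log2 fold change of the 37 members was -0.17 when JIB-04 replicate 1 was left out and -0.06 when JIB-04 replicate 2 was. It was -0.17 without vehicle replicate 1 and -0.06 without vehicle replicate 2. Without JIB-04 replicates 1, 2 and 3, the log2 fold change was negative in 37, 34 and 36 of 37 members. Without vehicle replicate 1 it was negative in 37, and without vehicle replicate 2 in 28 (51.1% of all genes). In the last setting 5 of 7 core genes were negative. Without JIB-04 replicate 1, 17 members had an unadjusted p under 0.05 in limma, all of them lower with JIB-04, beside 9.02% of all genes lower and 9.74% higher. In that setting 27 members lay below vehicle with no overlap, beside 29.0% of all genes. The smallest adjusted p of a member was then 0.129, and still 0 were called. Without vehicle replicate 1, 29 members did not overlap, beside 26.9% of all genes. Far fewer members separated in the remaining settings. Leaving out JIB-04 replicate 2 gave 5 members, beside 17.2% of all genes. Dropping JIB-04 replicate 3 gave 6 (17.2% of all genes), and dropping vehicle replicate 2 gave 5 (20.0%). Of 37 members, these counts are smaller shares than those of all genes. A comparison of 2 libraries with 2, or of 3 with 1, gives non-overlap more readily than 3 with 2.

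The deposited scaling also set part of the shift. The columns summed to 1008733, 954981 and 988244 in JIB-04 and to 994420 and 1046902 in vehicle, so that JIB-04 replicate 2 was scaled down and vehicle replicate 2 up relative to their plain totals. With reads divided by the plain library total, the members took up 0.849%, 0.769% and 0.790% of reads in JIB-04 replicates 1, 2 and 3, against 0.827% and 0.847% in vehicle replicates 1 and 2. The median log2 fold change of members was then -0.07 and that of all genes 0.04, so that members were 0.11 below all genes under either scaling. Under the plain total 33 of 37 members were negative and 0 were called.

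The 7 nuclear core subunits hold the electron path. Ndufv1, which binds NADH and the flavin (chromosome 19, 4007498 to 4012755 of mm10), had 457, 399 and 400 CPM in JIB-04 and 449 and 475 in vehicle. Its mean was 418 ± 33 in JIB-04 and 462 ± 19 in vehicle, a log2 fold change of -0.15 (SE 0.09, limma adjusted p = 0.821). JIB-04 replicate 1 lay between the vehicle libraries and the others below both. Ndufv2, its partner with an iron-sulfur cluster, had 406, 361 and 391 in JIB-04 and 379 and 436 in vehicle, with groups that overlapped. Ndufs1, the largest subunit, which carries electrons on through several iron-sulfur clusters (chromosome 1, 63143591 to 63176822), had 667, 527 and 577 in JIB-04 and 615 and 670 in vehicle. Here too JIB-04 replicate 1 lay within the vehicle range, and the log2 fold change was -0.13 (SE 0.12).

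The other core genes belong to the Q module. Ndufs3, a structural subunit of the Q module with no redox group, had 204, 170 and 177 CPM in JIB-04 and 199 and 207 in vehicle. Its log2 fold change, like that of Ndufv1, was -0.15 (SE 0.09, limma adjusted p = 0.825). Ndufs8, which holds a pair of iron-sulfur clusters, had 151, 136 and 135 in JIB-04 and 145 and 152 in vehicle. Ndufs7, whose iron-sulfur cluster hands electrons to ubiquinone (chromosome 10, 80249451 to 80256792), had 175, 152 and 156 in JIB-04 and 155 and 172 in vehicle. Its groups overlapped at both ends, with a log2 fold change of -0.02 (0.028 with plain library totals) and a 95% interval from -0.23 to 0.18. Over the 7 core genes the interval bounds ran from -0.40 to 0.18. In 0 of 7 did the groups separate, beside 12.0% of all genes tested with JIB-04 below and 10.7% with JIB-04 above. With 7 genes, 0 is not far from these shares.

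Core and accessory subunits had like log2 fold changes. The median log2 fold change was -0.13 over the 7 core genes and -0.12 over the 30 accessory genes, and it was -0.12 over the accessory genes without Ndufa4. Per library, the core median was 0.01, -0.20 and -0.15 relative to the vehicle mean in JIB-04 replicates 1, 2 and 3, and the accessory median was 0.0009, -0.22 and -0.11. In vehicle replicates 1 and 2 the core median was -0.04 and 0.04 and the accessory median -0.05 and 0.05. The mean log2 level of core genes minus that of accessory genes, a difference within each library that scaling hardly moves, was 1.02, 1.01 and 0.97 in JIB-04 and 0.99 and 0.99 in vehicle. The JIB-04 values spanned the vehicle values. No p is given for a score over members, since they were chosen with earlier results known.

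The 3 accessory genes with the smallest p encode parts of the proximal membrane arm, and the next 3 parts of the N module, the distal membrane arm and the Q module. Ndufa1, a small membrane subunit encoded on the X chromosome (37187588 to 37191238), had 88.9, 78.3 and 88.4 CPM in JIB-04 and 97.1 and 97.6 in vehicle. All JIB-04 libraries lay below both vehicle libraries, with means of 85.2 ± 6.0 in JIB-04 and 97.3 ± 0.4 in vehicle. The log2 fold change was -0.19 (SE 0.07, limma adjusted p = 0.750). Ndufa10, a subunit with the fold of a nucleoside kinase on the matrix face of the membrane arm (chromosome 1, 92439718 to 92473758), had 414, 370 and 385 in JIB-04 and 429 and 463 in vehicle. Its groups did not overlap either, with a log2 fold change of -0.19 (SE 0.08, limma adjusted p = 0.770). Ndufa3, a membrane subunit (chromosome 7, 3617372 to 3620161), had 99.0, 81.7 and 93.0 in JIB-04 and 104 and 108 in vehicle. It had the most negative log2 fold change of all members, -0.21 (SE 0.09, limma adjusted p = 0.770). These 3 were the members with an unadjusted p under 0.05 in limma. None of the other 6 genes of the proximal membrane arm had groups that did not overlap, beside 12.0% of all genes below and 10.7% above.

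The other 2 members with no overlap belong to the N module. Ndufv3, a subunit at the tip of the matrix arm (chromosome 17, 31520114 to 31531325), had 139, 125 and 123 CPM in JIB-04 and 140 and 146 in vehicle, a log2 fold change of -0.15 (SE 0.07). Ndufa7, a matrix arm subunit, had 102, 89.0 and 96.1 in JIB-04 and 106 and 102 in vehicle, and was named after its values were seen. For both genes JIB-04 replicate 1 was just below the lower vehicle library, so the groups separated narrowly. Ndufb11, an X-linked subunit of the distal membrane arm whose human gene is mutated in a form of cardiomyopathy, had 246, 204 and 232 in JIB-04 and 244 and 266 in vehicle. Ndufa9, which binds NADPH beside the ubiquinone site, had 262, 222 and 224 in JIB-04 and 253 and 270 in vehicle. In both JIB-04 replicate 1 lay between the vehicle libraries, and the limma adjusted p was 0.821 for each.

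By position in the enzyme, the medians lay close together. The median log2 fold change was -0.13 over the 10 genes of the N module, -0.12 over the 6 of the Q module, -0.12 over the 9 of the proximal membrane arm and -0.09 over the 10 of the distal membrane arm. In 2, 0, 3 and 0 of these genes every JIB-04 library lay below both vehicle libraries, beside 12.0% of all genes tested, and the difference between modules was not tested. Ndufab1, the mitochondrial acyl carrier protein, which is also needed for fatty acid synthesis in mitochondria and is held apart from the modules, had 192, 155 and 169 CPM in JIB-04 and 171 and 181 in vehicle. Its JIB-04 libraries lay on both sides of the vehicle libraries, with a log2 fold change of -0.04 (SE 0.10), or 0.016 with plain library totals. Ndufa4, the complex IV subunit, had 437, 359 and 379 in JIB-04 and 425 and 438 in vehicle, with a log2 fold change of -0.14 (SE 0.10). Its fold change lay within the range of the complex I genes.

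Levels of different genes were compared per kilobase of transcript. Over the 37 members the mean level over the 5 libraries ran from 50.0 to 668 CPM per kilobase, a 13.4-fold range. The highest was Ndufa4, with 642 ± 67 in JIB-04 and 707 ± 15 in vehicle. Next came Ndufb10 of the distal membrane arm, with 524 ± 49 in JIB-04 and 535 ± 56 in vehicle, and Ndufb8, a subunit often used to follow assembled complex I, with 455 ± 40 in JIB-04 and 479 ± 28 in vehicle. The spreads of Ndufb10 and Ndufb8 overlap within a group. At the low end were Ndufv3, with 81.5 ± 5.3 in JIB-04 and 90.4 ± 2.9 in vehicle, and Ndufs4, whose loss in mice gives a fatal brain disease, with 52.1 ± 7.3 in JIB-04 and 55.7 ± 2.4 in vehicle. Ndufab1 had 49.5 ± 5.4 in JIB-04 and 50.6 ± 2.1 in vehicle. It was below Ndufs4 in 4 of 5 libraries, with spreads that met in JIB-04 and did not meet in vehicle.

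Core and accessory genes overlapped in level per kilobase. The median over core genes was 239, 201 and 217 CPM per kilobase in JIB-04 replicates 1, 2 and 3, against 223 and 252 in vehicle, and that over accessory genes was 209, 179 and 194 in JIB-04, against 208 and 224 in vehicle. The order of the 37 members was nearly fixed, with a Spearman correlation across genes of 0.988 to 0.995 for the 10 pairs of libraries. This describes 37 genes that share their transcript lengths in every library. Per kilobase of coding sequence, Ndufa4 and Ndufb10 still ranked 1 and 2, but Ndufab1 ranked 20 of 37 rather than 37, as its annotated transcript of 3479 bases has a coding part of 468.

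**Figure D3:**
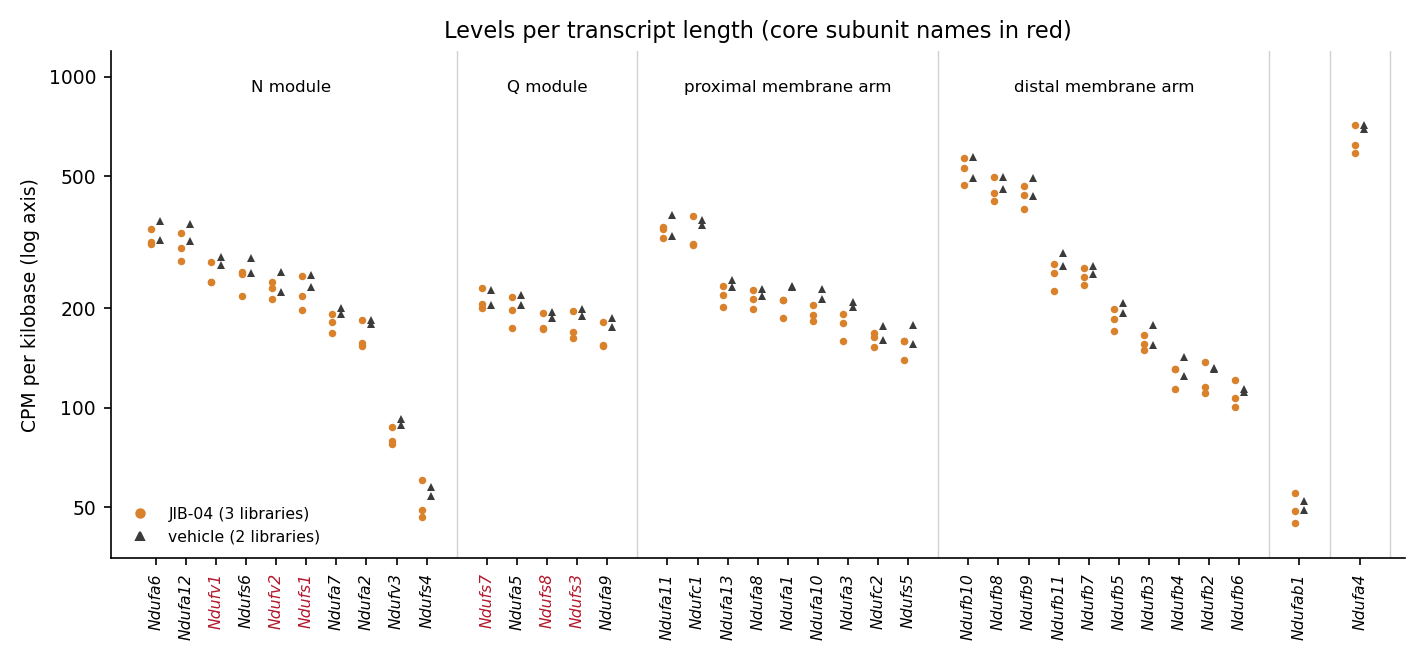
Level of 36 of the 37 genes in each library per kilobase of transcript (log axis), grouped by module of the enzyme, with JIB-04 to the left of vehicle for each gene. Genes keep their own level in all 5 libraries, from 50.0 for Ndufab1 to 668 for Ndufa4, and differences between genes are far larger than those between groups.

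The promoters of the members were searched for letters that factors known to act on respiratory genes can bind. Whether such letters bear on the shared variation of the members across libraries was not tested. RefSeq windows of 250 bases before to 50 after the start (GRCm38.p6, the same build as mm10) were in the table for 33 members. The other 4 had no window there. YY1 motif letters AAGATGGCG, on either strand, were in 5 of 33 member promoters (15.2%), against 1.64% of the 27025 genes in the table. They are shown here because all 5 matches lie on the gene's own strand 23 to 36 bases after the start, and in all 5 the ATG inside the match is the annotated start codon. The match therefore overlaps the first codons, in genes with very short leaders. Capitals mark the match.
Ndufa9, chr6:126849097-126849126, minus strand: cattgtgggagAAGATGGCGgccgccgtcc
Ndufc1, chr3:51408915-51408944, minus strand: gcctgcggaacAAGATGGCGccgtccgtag
Ndufs4, chr13:114388045-114388074, minus strand: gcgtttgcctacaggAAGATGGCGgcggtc
Ndufs6, chr13:73328433-73328462, minus strand: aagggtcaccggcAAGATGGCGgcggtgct
Ndufs7, chr10:80249462-80249491, plus strand: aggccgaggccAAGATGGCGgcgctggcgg

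NRF1 is a regulator of many nuclear genes for mitochondrial proteins. Its letters GCATGCG were in the promoter of 3 of 33 members (9.09%), against 4.01% of genes in the table. The longer NRF1 motif, which holds these letters, was in 1 of 33, Ndufa11, against 1.07%. The matches lie before the start in all 3 windows, and capitals mark them. In Ndufa11 and Ndufa8 matches on both strands overlap.
Ndufa11, chr17:56717692-56717721, plus strand: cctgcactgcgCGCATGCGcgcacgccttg
Ndufa8, chr2:36049329-36049358, minus strand: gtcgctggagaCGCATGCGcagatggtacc
Ndufa6, chr15:82354357-82354386, minus strand: ttccgcggtagaGCATGCGcattgcagagc

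GABPA, an ETS family factor, is known to act on several genes of the respiratory chain. Its letters CCGGAAG were in 4 of 33 member promoters (12.1%), against 9.93% of genes in the table. Those of Ndufs3, a core gene, and of Ndufb7 are shown, since they lie on the gene's own strand just before the start. Capitals mark the match.
Ndufs3, chr2:90904731-90904760, minus strand: ccccgcgtccgcCCGGAAGaagagtcactg
Ndufb7, chr8:83566726-83566755, plus strand: agcctagatgacCCGGAAGacactgaaggg

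The letters TCAAGGTCA, bound by oestrogen-related receptors, were in 0 of 33 member promoters and 0.466% of genes in the table, and the shorter form AAGGTCA in 3 of 33 (9.09%) against 5.38%. TATAAA was in 4 of 33 (12.1%) against 15.7%. Member windows had a median GC content of 59.0%, against 52.8% over the table, and the part of base composition in these shares was not tested. No motif was shared by most members, and 12 of 33 held any of the YY1, short NRF1 or GABPA letters (36.4%, against 14.4%). The 5 genes with YY1 letters had log2 fold changes of -0.15 (Ndufa9), -0.14 (Ndufs6), -0.12 (Ndufc1), -0.10 (Ndufs4) and -0.02 (Ndufs7), which spans most of the range of the 37 members. A match is a description of these letters and not a binding site.

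Assembly factors help to build the enzyme without being part of it. Of 16 on the list, 14 had negative and 2 positive log2 fold changes, with a median of -0.06 against -0.12 for the subunits, and limma called 0 (0 at an unadjusted p under 0.05). Nubpl, which delivers iron-sulfur clusters to complex I, had 6.36, 5.41 and 5.20 CPM in JIB-04 and 6.45 and 6.74 in vehicle. Its groups did not overlap, with a log2 fold change of -0.19 (SE 0.12, limma adjusted p = 0.821). Ndufaf2, which acts late in assembly, had 18.2, 17.6 and 18.3 in JIB-04 and 18.9 and 20.6 in vehicle. Its groups were also apart, by less than 1 CPM. Ndufaf1, of the membrane arm assembly complex, had 42.4, 38.0 and 35.9 in JIB-04 and 40.4 and 45.5 in vehicle. Foxred1, an oxidoreductase-like factor, had 63.2, 60.5 and 54.7 in JIB-04 and 61.0 and 66.2 in vehicle, and both genes overlapped between groups. In all, 4 of 16 factors were below both vehicle libraries in every JIB-04 library, beside 12.0% of all genes tested.

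The other respiratory complexes had log2 fold changes like those of complex I. The median log2 fold change was -0.11 for 4 genes of complex II, -0.11 for 9 of complex III, -0.14 for 11 of complex IV and -0.09 for 15 of complex V, and each of these 39 values was negative. limma called 0 of them, with 1 of complex III and 2 of complex IV lower at an unadjusted p under 0.05 (2.51% of all genes). In 5 of 11 genes of complex IV every JIB-04 library lay below both vehicle libraries, beside 12.0% of all genes tested. The count was 0 of 4 for complex II, 1 of 9 for complex III and 0 of 15 for complex V. The genes with the smallest p of each complex were Sdhb, the iron-sulfur subunit of succinate dehydrogenase, at -0.11 (SE 0.10), Uqcr11 of complex III at -0.21 (SE 0.08), Cox8b of complex IV at -0.18 (SE 0.07) and Atp5k of ATP synthase at -0.16 (SE 0.09). Within a library, the mean log2 level of the 37 members minus that of the 39 other genes was -1.27, -1.25 and -1.24 in JIB-04 and -1.27 and -1.24 in vehicle. This difference hardly depends on library scaling, and its absolute size depends on gene length. It averaged -1.25 ± 0.02 in JIB-04 and -1.26 ± 0.02 in vehicle, so the groups differed by less than the spread between libraries.

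Of 10 regulators of respiratory genes, 9 overlapped between the groups, and in 1, Gabpa, named after its values were seen, every JIB-04 library lay below both vehicle libraries (12.0% of all genes tested). Ppargc1a, a coactivator that drives mitochondrial biogenesis, had 181, 105 and 167 CPM in JIB-04 and 141 and 182 in vehicle. JIB-04 replicate 2, the library with the lowest complex I values, also had the lowest Ppargc1a. JIB-04 replicate 3, the next lowest for complex I, did not follow, with 167 against 141 in vehicle replicate 1. A link between them was not tested. Esrra, an orphan nuclear receptor that works with it, had 117, 102 and 111 in JIB-04 and 112 and 116 in vehicle. Tfam, which packages and transcribes mitochondrial DNA, had 42.1, 35.4 and 34.4 in JIB-04 and 37.9 and 39.0 in vehicle. These 3 overlapped between groups, and of the 10 regulators on the list limma called 0 (0 at an unadjusted p under 0.05).

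Markers of cardiomyocytes and of other cell types also differed between the libraries, and not all of these lists followed the complex I values. The 12 cardiomyocyte markers summed to 94257, 78127 and 85429 CPM in JIB-04 and to 89839 and 102087 in vehicle, with none at 0 in any library. All 12 had negative log2 fold changes, with a median of -0.17, and JIB-04 replicate 2 was lowest and vehicle replicate 2 highest in their sum, as for complex I. The mean log2 level of complex I genes minus that of these markers was -4.86, -4.80 and -4.87 in JIB-04 and -4.87 and -4.92 in vehicle. This difference averaged -4.84 ± 0.04 in JIB-04 and -4.89 ± 0.03 in vehicle. It is relative to markers that themselves had negative log2 fold changes, and its cause was not tested. The 10 macrophage markers summed to 348, 476 and 543 in JIB-04 and to 353 and 253 in vehicle. Of their log2 fold changes 9 of 10 were positive, and 7 were higher at an unadjusted p under 0.05 in limma (3.93% of all genes). The 10 fibroblast markers summed to 4293, 5122 and 5084 in JIB-04 and to 4325 and 4009 in vehicle, with 9 of 10 positive. The libraries with the lowest complex I values, JIB-04 replicates 2 and 3, had the highest macrophage and fibroblast sums. The 6 red blood cell markers summed to 851, 1675 and 1229 in JIB-04 and to 3459 and 2284 in vehicle, lower in every JIB-04 library. Of these markers 4 of 6 were lower at an unadjusted p under 0.05 in limma (2.51% of all genes). The 8 endothelial markers summed to 643, 869 and 701 in JIB-04 and to 721 and 741 in vehicle, highest in JIB-04 replicate 2. The 8 smooth muscle and pericyte markers had 3 positive and 5 negative log2 fold changes. In 0 of 8 did the groups separate, beside 12.0% of all genes with JIB-04 below and 10.7% above. The 6 lymphocyte markers were low, at a sum of 3.15 to 4.77 CPM in JIB-04 libraries and 2.15 to 2.63 CPM in vehicle libraries. All 5 of them that were tested had positive log2 fold changes, with a median of 0.22 on the log2(value + 1) scale. At such low values adding 1 makes a change smaller. On recovered reads the median was 0.85 in edgeR and 0.86 in limma-voom and DESeq2. In 2 of these markers every JIB-04 library lay above both vehicle libraries (10.7% of all genes). At an unadjusted p under 0.05 in limma 1 was higher (3.93% of all genes). limma and edgeR called 0 genes of any of these lists. DESeq2 called 2 macrophage, 1 fibroblast and 1 red blood cell marker, beside 0.576% of all genes. None of the macrophage, fibroblast, endothelial or red blood cell markers was at 0 in any library, and the part of these cells in the complex I values was not tested. In bulk heart RNA, fewer cardiomyocytes and less complex I RNA per cardiomyocyte cannot be told apart.

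**Figure D4:**
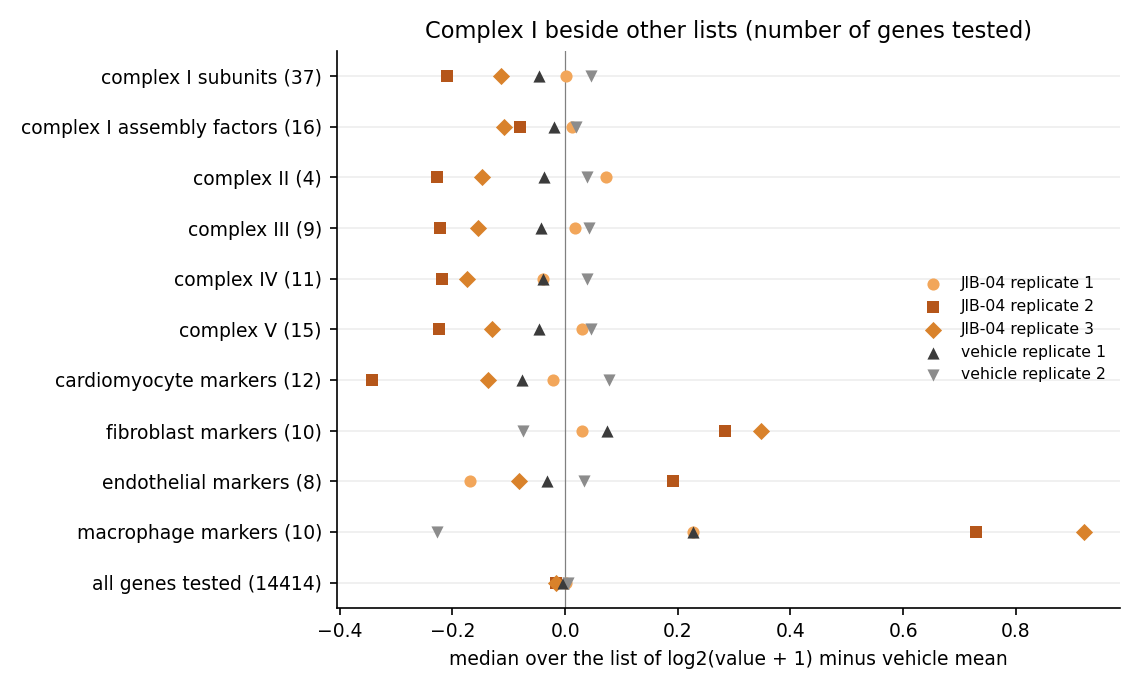
Median over each gene list of log2(value + 1) minus the vehicle mean (x axis), with 1 symbol per library and the number of genes tested in brackets. In JIB-04 replicates 2 and 3 complex I genes are at -0.21 and -0.11, with complexes II to V and cardiomyocyte markers on the same side, while macrophage markers are at 0.73 and 0.92 in these libraries.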

How the data were processed

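Heart RNA (Trizol) was made into TruSeq stranded mRNA libraries, as the labels' protocols state. The submitters' processing notes name build mm10 and, with no role or order, edgeR, featureCounts, Subread, Picard 1.127, TopHat2 2.0.12 and FastQC 0.11.2. The deposited files give 1 value per gene under the header CPM. The authors' values were treated as a normalised signal, since columns summed to 954981 to 1046902, unlike plain CPM. All values (100%) were whole multiples of 1 read within 0.01, so whole reads were recovered. The 1 blank row per file was left out.

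The test was limma 3.58.1 (R 4.3.3), with a mean-variance trend on log2(value + 1), over the 14414 genes kept by filterByExpr (at least 10 reads, 15 in total), with Benjamini-Hochberg adjustment over all of them at 0.05. The fit was tested on simulated data. edgeR 4.0.16, limma-voom and DESeq2 1.42.0 on recovered reads, other filters, a pseudocount of 0.1, plain totals, the replicate number as a block and leaving out each library were alternatives. Transcript lengths are GENCODE M21, for the RefSeq-linked transcript with the longest coding part. The members and lists were chosen with earlier results of these data known. Named were core genes, accessory genes by smallest p, by largest change and by level, those fixed by name, and for other lists the genes of smallest p. The single values of 1 core gene are not reported here, although it is counted in all totals and medians.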

Additional observations from a re-analysis of the deposited data

How the results depend on the processing

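All alternatives left 0 of 37 complex I genes past the threshold. The median log2 fold change of the 37 genes stayed negative, from -0.17 to -0.06 with 1 library left out, from -0.19 to -0.06 for core genes and from -0.17 to -0.06 for accessory genes, and it was -0.07 with plain library totals. The count of members with no overlap ran from 5 to 29 with 1 library left out. The highest count came with vehicle replicate 1 left out (26.9% of all genes below). With JIB-04 replicate 1 left out the count was 27 (29.0%). The counts of 5 came from omitting JIB-04 replicate 2 (17.2% of all genes) or vehicle replicate 2 (20.0%). Omitting JIB-04 replicate 3 gave 6 (17.2%). Over all genes limma and edgeR called 0 and DESeq2 called 83, and leaving out 1 library gave limma 0 to 29 calls, the 29 without JIB-04 replicate 1. With plain totals Ndufs7, Ndufb10, Ndufab1 and Tfam were at 0.028, 0.023, 0.016 and 0.0013. With 1 library left out, log2 fold changes ranged from -0.18 to 0.024 for Ndufv2, -0.10 to 0.052 for Ndufs7, -0.14 to 0.076 for Ndufb10, -0.12 to 0.035 for Ndufab1, -0.31 to 0.11 for Ppargc1a and -0.14 to 0.0043 for Tfam, each with a change of sign. The cause was not tested. The replicate numbers are not shown to pair the libraries, since deviations of same-numbered libraries correlated at -0.13 for both pairs. With the replicate block the median was -0.10, 0 members were called and Tfam was at 0.0043, the values without JIB-04 replicate 3, which has no partner in vehicle. With 3 against 2 libraries an exact test cannot go below a p of 0.1.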

Other observations

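Ndufa4l2, a hypoxia-responsive paralogue of Ndufa4 that the naming rule leaves out, did not follow the subunits. It had 12.1, 18.2 and 15.6 CPM in JIB-04 and 15.3 and 14.8 in vehicle. The highest value was in JIB-04 replicate 2, the library where 30 of 37 complex I genes were lowest, and the log2 fold change was 0.007 with a 95% interval from -0.37 to 0.38 (limma). That it ran the other way in this library was noticed after the values were seen and was not tested.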
